A study of Mus musculus with 6 samples.

Results

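The genes examined were 10 that nucleate actin, or steer and carry the nucleators, during the asymmetric division of the mouse oocyte: Fmn2, Spire1, Spire2, Daam1, Diaph1, Actr2, Actr3, Cdc42, Rab11a and Myo5b. They were taken by gene name from the 22416 genes of a ribosome footprint table, and all 10 were listed there once and averaged at least 1 FPKM, the filter for testing. The table came from Ribo-lite, in which the mRNA fragments shielded by ribosomes are sequenced from a small number of cells. It had 6 libraries of 500 oocytes each, 2 per group, from PMSG-primed 4-week-old mice, in the study of C57BL/6 background. The labels give WT for WT_FGO and WT_MII only. WT_FGO were fully grown oocytes at the germinal vesicle (GV) stage, WT_MII were control oocytes at metaphase II (MII), and Treat_MII were treated oocytes at MII. The labels say no more of Treat_MII than that it was treated. The study's text gives the treatment as BYBX, a ligand of RNA G-quadruplexes (rG4s, folded G-rich stretches of RNA), added to the culture medium, with DMSO as its solvent. It describes control GV and MII oocytes as given a matching concentration of DMSO. Oocytes were pooled in each library, and nothing says that the libraries of a group came from separate mice, so p-values measure the spread between these samples.

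In the mouse oocyte the meiotic spindle forms near the centre and is moved to the cortex by a network of actin filaments, so that division yields a large egg and a small polar body. The formin Fmn2 and the Spire proteins nucleate this network together, on vesicles marked by the GTPase Rab11a and moved by the motor Myo5b. Under the cortex, the Arp2/3 complex, which nucleates branched filaments and is switched on downstream of Cdc42, builds a thicker actin cap over the chromosomes.

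The libraries were shallow and differed in depth. The library constants recovered from the FPKM steps ranged from 94310 to 107252 reads in WT_FGO, from 164974 to 230907 in WT_MII and from 275605 to 331306 in Treat_MII. FPKM is read number per length of coding sequence, scaled to the reads of the library, so levels can be set side by side between genes, but they say nothing of the footprints per oocyte. No spike-in is stated, and fewer contributing cells and less RNA per cell cannot be told apart. The summed level of 10 oocyte markers ranged from 28900 to 45410 FPKM in WT_FGO, 18800 to 23380 in WT_MII and 27780 to 28440 in Treat_MII, with none at 0 in all libraries. From WT_FGO to WT_MII, 8 of the 10 were lower in both libraries and 2 were higher. Oosp1 went from 122.5 and 184.6 FPKM to 11260 and 15030, and Ooep from 14330 and 11480 to 1133 and 994.7. The sum is therefore not a measure of oocyte content. The sum of 12 granulosa or cumulus cell markers was 862.3 and 1653 FPKM in WT_FGO, 2223 and 411.7 in WT_MII, and 313.5 and 337.7 in Treat_MII. Of these markers, Tnfaip6 was at 0 in every library, Inha was at 747.3 FPKM in WT_FGO_2 against 28.97 in WT_FGO_1, and Hsd17b1 was at 1956 FPKM in WT_MII_1 against 256.0 in WT_MII_2. The part of these markers in the results was not tested. Values without WT_FGO_2 and without WT_MII_1 are both given for the maturation changes of Daam1 and Actr2, and not for every other call.

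Maturation was examined first, by comparing WT_MII with WT_FGO. Daam1 and Actr2 rose, and Fmn2 and Spire1 had higher values in both WT_MII libraries without passing the test. Rab11a stayed the highest of the 10 in FPKM in all 3 groups. In reads, which are not scaled to coding length, Daam1 had 372 and Rab11a 183 in WT_MII. Limma called 2 of the 10 genes higher, where it called 3.67% of all 15127 tested genes higher, and 0 lower, where it called 3.09% of all genes lower (adjusted p under 0.05). At an unadjusted p under 0.05 there were 6 of the 10 and 3443 of all genes, in either direction. Limma voom on the recovered reads called 4 of the 10 higher, against 5.54% of 14540 genes, and 0 lower, against 10.8%. Values in both WT_MII libraries exceeded those in both WT_FGO libraries for 4 of the 10, as for 15.3% of all genes, and below both for 5 of the 10, as for 25.8% of all genes. When a library was left out, the change lay between 3.02 and 3.66 for Daam1 and between 3.65 and 4.74 for Actr2. Their calls were not kept in every such fit, which leaves a single library in a group. The median change was -0.55 on the log2 scale over the 10 genes and -0.44 over all tested genes. For the 10 it was -0.27 without WT_FGO_1, -0.82 without WT_FGO_2 and -0.10 after centring each library on its median.

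**Figure D1:**
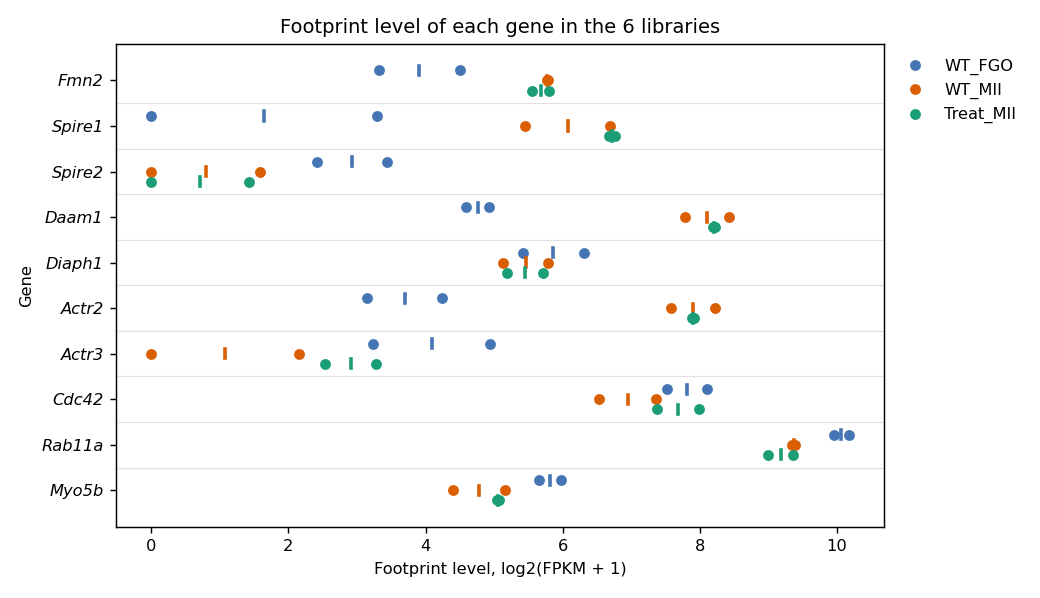
Footprint level of the 10 genes, as log2(FPKM + 1) on the horizontal axis, with 1 point per library and a vertical bar at the mean of each group of 2 libraries. The WT_MII and Treat_MII points of Daam1 and Actr2 lie apart from and above the WT_FGO points, while those of Diaph1 overlap with WT_FGO.

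Fmn2 (GRCm38 chromosome 1, 174501825 to 174822729, plus strand), the formin that oocytes need to move the spindle, had 8.959 and 21.67 FPKM in WT_FGO, 53.78 and 53.97 in WT_MII, and 54.83 and 45.99 in Treat_MII. All 4 MII libraries were above both WT_FGO libraries, which rested on 4 and 11 reads. Its log2 change with maturation was 1.87 ± 0.59 (SE), with an adjusted p of 0.125 in limma and 0.0259 in voom. It was 2.46 without WT_FGO_2, where limma gave an adjusted p of 0.0216, and 1.28 without WT_FGO_1. Pooled over libraries, the rate of reads was 3.43 times that of WT_FGO (95% exact interval 1.98 to 6.35). Such intervals take each read as independent and leave out the spread between libraries. PCR copies are not independent molecules and, if left in, would make them too narrow even for counting error.

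Spire1 (chromosome 18, 67488209 to 67610790, minus strand), a nucleator that works with Fmn2, had 8.825 and 0 FPKM in WT_FGO, 42.88 and 102.7 in WT_MII, and 108.0 and 101.2 in Treat_MII. WT_FGO held 2 reads in all, and 3 reads would have been 11.64 FPKM in the library at 0. The pooled rate of reads in WT_MII was 18.8 times that of WT_FGO, with a wide interval of 5.03 to 158.5. The fitted change was 4.43 ± 1.13 (SE) with an adjusted p of 0.0773 in limma and 0.000581 in voom. It ranged from 2.78 without WT_FGO_2 to 6.08 without WT_FGO_1, where limma gave an adjusted p of 0.0346. The reads of Spire1 were inferred, because the annotated coding length of 1968 bases gave no whole reads and 2403 bases was the shortest length that did.

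Spire2 (chromosome 8, 123332713 to 123369515, plus strand), the other Spire gene, had 9.845 and 4.329 FPKM in WT_FGO, 0 and 2.011 in WT_MII, and 0 and 1.684 in Treat_MII. These values stood for 5 reads over the 6 libraries, with 3 in WT_FGO and 1 in each MII group, so no fold is given. At MII the footprints of this pair of genes were thus nearly all on Spire1, at 72.8 ± 42.3 FPKM against 1.01 ± 1.42 for Spire2 in WT_MII (SD, n = 2).

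Daam1 (chromosome 12, 71831078 to 71992333, plus strand), a formin known as an effector of Wnt signalling, had 29.54 and 23.09 FPKM in WT_FGO, 219.5 and 341.8 in WT_MII, and 291.5 and 298.7 in Treat_MII. It rose from 26.3 ± 4.56 to 280.6 ± 86.5 FPKM (SD, n = 2) with maturation, and the groups lay far apart. Its log2 change was 3.34 ± 0.38 (SE), for which limma gave an adjusted p of 0.00793, and with 17 reads in WT_FGO the pooled rate was 11.1 times higher (6.86 to 19.3). Without WT_FGO_2 the change was 3.17 and without WT_MII_1 it was 3.66. In limma the adjusted p was 0.124 with only the compared groups and 0.0669 without the trend, so the call was not kept in these fits.

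Diaph1 (chromosome 18, 37843601 to 37935476, minus strand), a formin of the diaphanous family, had 78.11 and 41.70 FPKM in WT_FGO, 54.22 and 34.18 in WT_MII, and 51.62 and 35.32 in Treat_MII. The 3 groups overlapped. Its change with maturation was -0.40 ± 0.55 (SE), with an adjusted p of 0.70 in limma and a 95% interval from -1.75 to 0.95, and it had 211 reads over the 6 libraries. Among the 3 formins, Diaph1 was above Daam1 in both WT_FGO libraries, whereas Daam1 was above Diaph1 in all 4 MII libraries.

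Actr2 (chromosome 11, 20062304 to 20112913, minus strand) encodes Arp2, one of the actin-like subunits that start a new branch in the Arp2/3 complex. It had 17.94 and 7.888 FPKM in WT_FGO, 189.7 and 296.8 in WT_MII, and 240.0 and 236.4 in Treat_MII. All 4 MII libraries were far above both WT_FGO libraries. The rise with maturation was 4.20 ± 0.51 (SE) in log2 units, for which limma gave an adjusted p of 0.00965. WT_FGO held 3 reads against 118 in WT_MII, a ratio of rates of 20.03 (6.69 to 98.5). The change was 3.65 without WT_FGO_2 and 4.52 without WT_MII_1. In limma the adjusted p was 0.144 with only the compared groups and 0.0571 without the trend, so the call was not kept in these fits.

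Actr3 (chromosome 1, 125392905 to 125435727, minus strand) encodes Arp3, the partner of Arp2 in the same complex. It had 8.456 and 29.74 FPKM in WT_FGO, 0 and 3.454 in WT_MII, and 4.814 and 8.680 in Treat_MII, which together stood for 11 reads. Both WT_MII libraries were below both WT_FGO libraries, and limma gave -3.01 ± 1.15 (SE) with an adjusted p of 0.188. The ratio of rates was 0.102 (0.00215 to 0.91) from 1 read against 5. The values of Actr3 are uncertain in another way: 74.6% of the 28-base words of its coding sequence also occur in transcripts of other genes, most in Gm8822, and the handling of such reads is not given in the sources used here. The share was 45.0% for Cdc42, 22.6% for Actr2, 12.8% for Rab11a and 0 for the other 6 genes.

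Cdc42 (chromosome 4, 137319696 to 137357720, minus strand), the GTPase that acts upstream of Arp2/3 in polarity, had 273.1 and 183.7 FPKM in WT_FGO, 91.84 and 164.0 in WT_MII, and 164.6 and 252.9 in Treat_MII. WT_MII was lowest, and Treat_MII overlapped with WT_FGO. The change with maturation was -0.86 ± 0.45 (SE), with an adjusted p of 0.345 in limma.

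Rab11a (chromosome 9, 64715299 to 64737758, minus strand), which marks the vesicles that carry Fmn2 and Spire, had 1156 and 989.9 FPKM in WT_FGO, 652.3 and 671.0 in WT_MII, and 511.0 and 655.9 in Treat_MII. It had the highest level of the 10 genes in every library, and its 2 WT_FGO values were above all 4 MII values. The change with maturation was -0.69 ± 0.24 (SE), with an adjusted p of 0.152 in limma, against a median of -0.44 over all genes. Myo5b (chromosome 18, 74440936 to 74771493, plus strand), the motor for these vesicles, had 49.51 and 61.96 FPKM in WT_FGO, 34.84 and 20.22 in WT_MII, and 31.98 and 32.58 in Treat_MII. Both WT_FGO values were above all MII values here too. The change with maturation was -1.03 ± 0.52 (SE), and limma gave an adjusted p of 0.324.

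The order of the 10 genes by level differed between stages. In WT_FGO, Rab11a at 1073 FPKM was followed by Cdc42 at 228.4, Diaph1 at 59.9 and Myo5b at 55.7, and the libraries of the first 3 of these were apart from each other. Diaph1 and Myo5b did not differ beyond their spread, nor did neighbouring genes from Daam1 down. In WT_MII, Rab11a at 661.7 FPKM was followed by Daam1 at 280.6, Actr2 at 243.3 and Cdc42 at 127.9. Daam1 and Actr2 overlapped, and so did neighbouring genes from Cdc42 to Myo5b. The summed level of the 10 genes was 1640 and 1364 FPKM in WT_FGO, 1339 and 1690 in WT_MII, and 1458 and 1669 in Treat_MII, which overlapped, while its make-up differed. Rab11a made up 71.5% ± 1.49 of the sum in WT_FGO, 44.2% ± 6.37 in WT_MII and 37.2% ± 3.01 in Treat_MII (SD, n = 2). Daam1 made up 1.75% ± 0.0763, 18.3% ± 2.71 and 18.9% ± 1.48 in the same order. Actr2 made up 0.836% ± 0.364, 15.9% ± 2.40 and 15.3% ± 1.63.

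**Figure D2:**
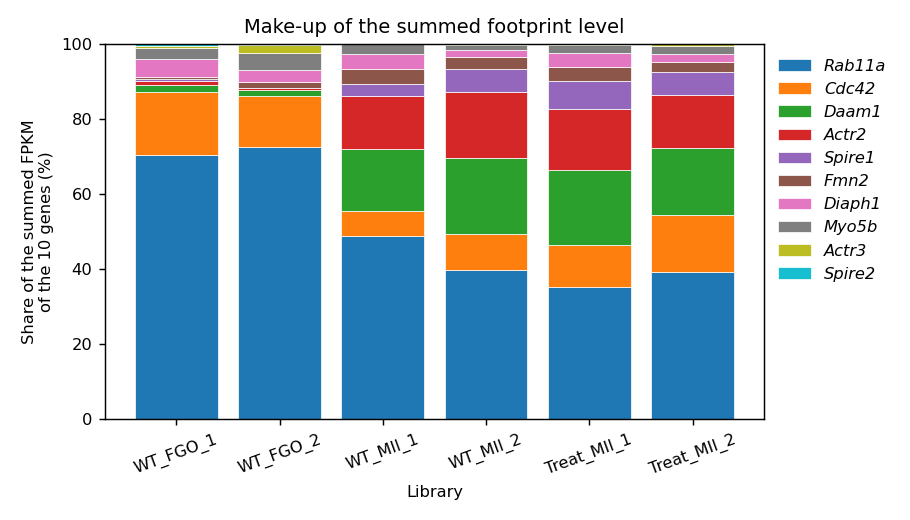
Share of each gene, in percent on the vertical axis, in the summed FPKM of the 10 genes, with 1 stacked bar per library. Rab11a fills 70.5% and 72.6% of the WT_FGO bars and between 35.0% and 48.7% of the 4 MII bars, where Daam1 and Actr2 take a larger share.

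The treatment was examined by comparing Treat_MII with WT_MII. For none of the 10 genes did limma call a difference, and Daam1 and Actr2 had nearly the same mean in both groups, at 295.1 ± 5.13 against 280.6 ± 86.5 FPKM and 238.2 ± 2.60 against 243.3 ± 75.7 FPKM (SD, n = 2). Limma called 0 of the 10 genes higher and 0 lower, as it called 0% of all 15127 genes in either direction. At an unadjusted p under 0.05 there were 0 of the 10 and 882 of all genes, and voom called 0 of the 10, against 0.399% of 14540 genes called higher and 0.695% called lower. The smallest adjusted p among the 10 was 0.931. Both Treat_MII libraries lay above both WT_MII libraries for 2 of the 10, as for 16.2% of all genes, and below both for 0 of the 10, as for 15.6% of all genes. The 2 genes were Cdc42 and Actr3, both by thin margins. Cdc42 had 164.6 FPKM in Treat_MII_1 against 164.0 in WT_MII_2, and Actr3 had 2 reads against 1 in the same libraries. The median change was 0.06 over the 10 genes and 0 over all genes.

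The intervals show what this design could not resolve. For Rab11a, which had the narrowest interval, the change was -0.19 with a 95% interval from -0.77 to 0.39 on the log2 scale. It was 0.11 (-0.83 to 1.04) for Daam1, 0.01 (-1.24 to 1.25) for Actr2 and -0.10 (-1.53 to 1.33) for Fmn2. For Cdc42 it was 0.73 (-0.37 to 1.82), and the pooled rate of reads was 1.53 times that of WT_MII (1.02 to 2.34 from counting error alone). The change of Cdc42 was 0.31 without WT_MII_1 and 1.14 without WT_MII_2. Spire1 had a fitted change of 0.65 (-2.11 to 3.40) and a pooled rate 1.35 times that of WT_MII (1.02 to 1.81, again without the spread between libraries). WT_MII_1 was low for Spire1, at 42.88 FPKM, and without it the change was 0.03. For Actr3, with 5 reads against 1, the change was 1.83 (-0.97 to 4.63). A gene that misses the threshold here is not shown to be unchanged.

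**Figure D3:**
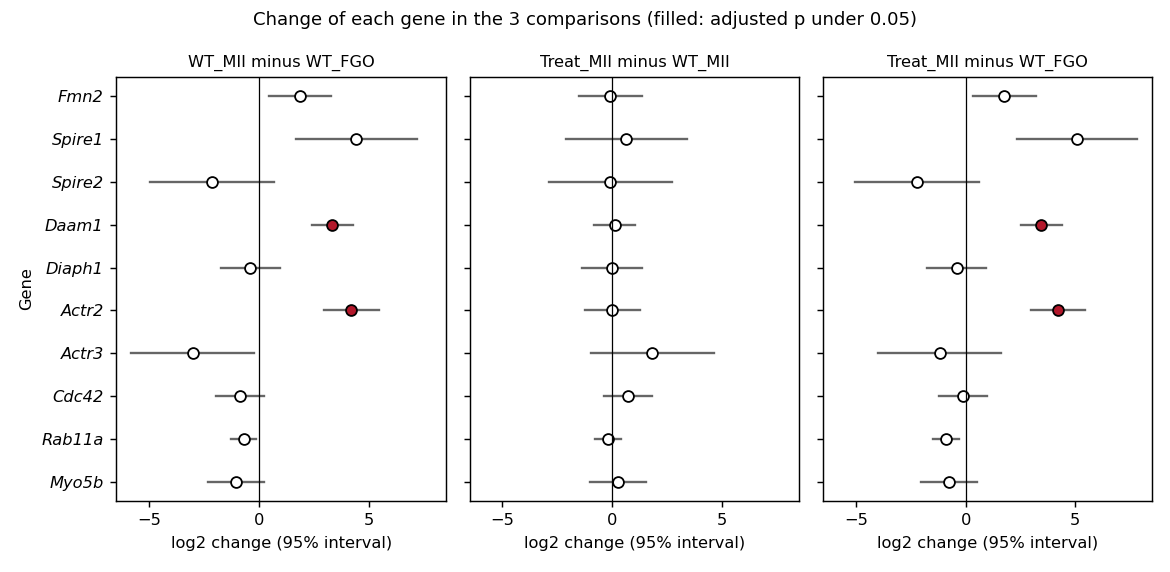
Log2 change of each gene (points) with its 95% interval from limma (lines) in the 3 comparisons. Filled points mark an adjusted p under 0.05, which only Daam1 and Actr2 reach, in both comparisons with WT_FGO, while every interval for Treat_MII minus WT_MII includes 0.

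Treat_MII was also set against WT_FGO. This comparison shares its WT_FGO libraries with the maturation comparison, so its values are given beside those above and not as a second finding. Daam1 was higher by 3.45 ± 0.38 (SE) with an adjusted p of 0.00894 in limma, and Actr2 by 4.20 ± 0.51 with an adjusted p of 0.0119. Limma called 2 of the 10 higher, against 2.86% of all genes, and 0 lower, against 1.0% of all genes. At an unadjusted p under 0.05 there were 5 of the 10 and 3011 of all genes. Voom called 4 of the 10 higher, against 5.84% of its genes, and 1 lower, against 13.7%. The latter was Rab11a, at -0.90 with an adjusted p of 0.0261 in voom and 0.111 in limma. Both Treat_MII libraries lay above both WT_FGO libraries for 4 of the 10, as for 16.6% of all genes, and below both for 3 of the 10, as for 28.9% of all genes. When a library was left out, the difference lay between 3.28 and 3.62 for Daam1 and between 3.66 and 4.75 for Actr2. These calls were not kept in every such fit, which leaves a single library in a group. Spire1 had a difference of 5.07 ± 1.13 (SE) with an adjusted p of 0.073, and Fmn2 had 1.77 ± 0.59 with an adjusted p of 0.172. The median change was -0.27 over the 10 genes and -0.53 over all genes.

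Related gene lists were read beside the 10 genes. Of 8 other Arp2/3 subunits, 7 were tested, 0 were called higher and 3 fell with maturation in limma, where Actr2 rose, and their median change was -2.66. Voom called 0 higher and 4 lower. Arpc2, a structural subunit, had 135.2 and 109.0 FPKM in WT_FGO and 6.442 and 18.41 in WT_MII, a change of -3.35 (adjusted p of 0.0352 in limma). Its WT_MII values stood for 1 and 4 reads. Arpc4, with 2 reads in each WT_MII library, fell by 3.06 (adjusted p of 0.0284). Arpc5l, with 5 and 8 reads there, fell by 2.66 (adjusted p of 0.0408). Arpc3, with the highest mean level over the 6 libraries though below Arpc5l in WT_FGO, had 176.4 and 341.3 FPKM in WT_FGO and 191.6 and 266.6 in WT_MII, with a change of -0.12 (adjusted p of 0.929). The count of falling subunits was 1 without either WT_FGO library, without either WT_MII library and after centring on the median. Without either Treat_MII library no maturation call of the 6 related lists was kept in limma, nor any call over all genes.

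The PAR polarity proteins set the axis of many cells together with Cdc42. With maturation limma called 4 of 8 tested genes higher and 0 lower, and the median change was 1.39. Voom called Prkci and Mark2 higher and Mark3 lower (adjusted p of 0.0467), gave Pard6b an adjusted p of 0.0586, and had no recovered reads for Pard3. Prkci, the atypical protein kinase C, went from 5.832 and 5.129 FPKM in WT_FGO to 103.4 and 78.61 in WT_MII, a change of 3.82 (adjusted p of 0.0142 in limma). Pard6b, its binding partner, rose by 2.99 (adjusted p of 0.0474) and the scaffold Pard3 by 2.94 (adjusted p of 0.0219). Mark2, a kinase of the opposite cell pole and the most abundant of the list, had 71.42 and 66.49 FPKM in WT_FGO and 345.8 and 295.1 in WT_MII, and rose by 2.20 (adjusted p of 0.0147). Prkci and Pard6b each had 1 read in each WT_FGO library. The count was 3 without either WT_FGO library and 1, Mark2, without either WT_MII library.

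Of the actin, turnover and cortical myosin genes, 22 of 24 were tested, of which 1 rose and 4 fell with maturation in limma, with a median of -0.76. Voom called 1 higher and 5 lower, the additional gene being Capzb. Anln, which encodes the actin-binding protein anillin of the division furrow, rose by 5.14 (adjusted p of 0.00441 in limma). Actb, cytoplasmic beta-actin, fell by 3.30 (adjusted p of 0.023) from 411.4 and 337.1 FPKM in WT_FGO to 58.8 and 22.91 in WT_MII. Pfn1, a profilin that delivers actin to formins, fell by 4.67 (adjusted p of 0.00611), and the filament-severing Cfl2 and Dstn fell by 5.55 (adjusted p of 0.0033) and 2.70 (adjusted p of 0.0168). The count of falling genes was 1 without WT_FGO_2 and 3 without WT_FGO_1 or either WT_MII library. Cfl2 had 1 read in each WT_MII library, Pfn1 had 1 and 3 there, and Anln had 1 and 2 reads in WT_FGO, so these folds rest on counts at or below 3 reads. Rdx, which encodes the membrane linker radixin, had the highest level of the list, between 1068 and 1684 FPKM over the 6 libraries.

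Fewer genes were called in the other lists. Of 10 tested other formins, limma called Fmnl2 alone, which fell by 2.18 (adjusted p of 0.0334). Voom also called Fmnl3 lower, at -2.38 (adjusted p of 0.000935), and Fhod3 higher, at 1.58 (adjusted p of 0.00125, against 0.0598 in limma). Fmnl2 had the highest level of the list in WT_FGO, at 256.6 FPKM, and Fhod3 in WT_MII, at 152.9 FPKM, and in Treat_MII, at 112.9 FPKM. Of 17 tested activators of Arp2/3, Abi1, a subunit of the WAVE complex with 1 and 3 reads in WT_FGO, rose by 2.82 (adjusted p of 0.0488 in limma). Voom also called Whamm higher, and Brk1, with the highest mean FPKM, had a change of -1.75 (adjusted p of 0.085 in limma). Fmnl2 and Abi1 were not called without either WT_MII library. They were also not called without either Treat_MII library, where limma kept no maturation call over all genes. None of the 7 tested genes of vesicle transport on actin was called by limma in any comparison, while voom called Rab11fip3 lower with maturation. The most abundant of these was Rab11fip5, a Rab11 effector with 237.6 and 124.9 FPKM in WT_MII and 64.89 and 67.91 in Treat_MII. Its change with treatment was -1.36 with an adjusted p of 0.804 in limma, and -1.31 with an adjusted p of 0.0035 in voom. With treatment limma called 0 genes in each of the 6 lists, and voom called Rab11fip5 alone.

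**Figure D4:**
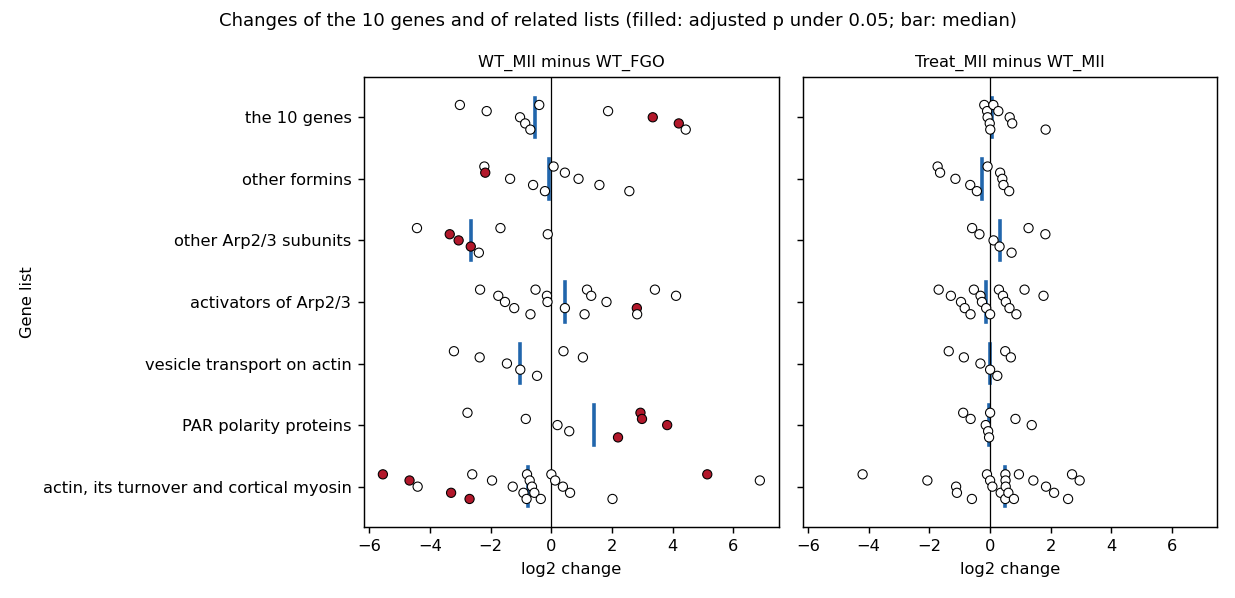
Log2 change of each tested gene of the 10 and of 6 related lists, for WT_MII minus WT_FGO and Treat_MII minus WT_MII. Filled points mark an adjusted p under 0.05 in limma and blue bars the list medians; with maturation the filled points of the Arp2/3 subunits lie below 0 and those of the PAR proteins above 0, and with treatment no point is filled.

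Because the treatment is a ligand of RNA G-quadruplexes, the mRNAs were searched for a motif made of 4 G runs, each 3 G or longer and separated by 1 to 7 bases, on the sense strand of the longest GENCODE coding transcript. Of all transcripts, 6.05% had it in the 5′-UTR, 3.54% in the coding sequence and 9.6% in the 3′-UTR. The share of transcripts with it in any part was not computed. Of the 10 genes, 0 had it in the 5′-UTR, 1 in the coding sequence and 1 in the 3′-UTR. They were Spire2 in the coding sequence (bases 150 to 179, chr8:123332914-123332943, GRCm38, plus strand) and Actr2 in the 3′-UTR (bases 405 to 427, chr11:20064262-20064284, minus strand). Both are shown 5′ to 3′ as RNA with the G runs in capitals.
Spire2: GGGcugccgcGGGcugcGGGGcgagccGGG
Actr2: GGGuGGGGGugguaaGGGGuGGG
Actr2 had the treatment values given above, a change of 0.01 on the log2 scale, and Spire2 had 1 read in each MII group. With loops of up to 12 bases, 0 of the 10 genes had a motif in the 5′-UTR, 2 in the coding sequence and 2 in the 3′-UTR. The shares of all transcripts were 11.1% in the 5′-UTR, 9.06% in the coding sequence and 15.1% in the 3′-UTR. A match is a description of letters and not a measured rG4.

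The genes most like Rab11a, Daam1 and Cdc42, which had the highest means over the 6 libraries but were not the first 3 in any group, were found by Pearson's r of log2(FPKM + 1) over the 6 libraries among 6520 genes averaging 10 FPKM or more. The libraries of a group share their stage, so these values are descriptions. Daam1 was most like Ss18 (0.9996), Bpgm (0.9992) and Ahctf1 (0.999), which were also higher in all 4 MII libraries. Rab11a was most like Arrdc1 (0.991), Ube2e1 (0.986) and Myo1g (0.985). Cdc42 was most like Thoc3 (0.974), Rab3il1 (0.966) and Hoxa11 (0.962), each listed at 0 in WT_MII_1.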

How the data were processed

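Ribo-lite libraries of mouse oocytes were prepared by the authors, who deposited FPKM per gene and library. Per the labels, cutadapt 1.14, Bowtie2 2.2.2 and STAR 2.5.3a were named, with the mm10 genome. The counting program, annotation release and handling of molecular identifiers are not given in the sources used here. Of 22442 rows, 26 that repeated a gene name were dropped. RNA-seq and rG4 mapping were not used here, and translational efficiency was not computed.

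Genes averaging 1 FPKM or more were tested on log2(FPKM + 1) with limma 3.58.1 in R 4.3.3 (lmFit, eBayes with trend). On this scale the change of low genes depends on the added 1. Spire1, at 0 FPKM in WT_FGO_2, changed with maturation by 4.43, by 6.14 with a pseudocount of 0.1 and by 3.92 in voom. The 3 groups were fitted together over all 6 libraries. Benjamini-Hochberg adjustment ran over all genes, with calls at an adjusted p under 0.05. Whole reads were recovered as FPKM times coding length (GENCODE vM21, GRCm38) and library constant, for 96.31% of genes in all libraries (tolerance 0.02 reads), and 3 reads were taken as the floor. Read ratios have exact 95% intervals. Alternatives were a pseudocount of 0.1, other filters (none, or a mean of at least 5 FPKM), median centring, quantile normalization, a replicate block, only the compared groups, no trend, voom on recovered reads, and leaving out each library.

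The fit was tested on simulated counts in 2 settings, the second chosen after the first gave no calls. With the smaller fold and larger spread it recovered none of the changed genes. With the larger fold and smaller spread it recovered most, but more of its calls were false than the adjusted p allows. A missed call is therefore weak evidence of no change, and a call near the threshold is uncertain.

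The genes and lists were chosen with earlier results of these data known. The text names the 10 genes, from each related list the genes called by limma in any comparison and the gene with the highest mean over the 6 libraries, and the 3 genes most like each of the 3 of the 10 with the highest such mean. Genes named from voom calls alone were chosen after their values were seen. The result of 1 further list is not reported here.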

Additional observations from a re-analysis of the deposited data

How the results depend on the processing

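Of 447 changes of the 10 genes under the alternatives, 395 kept their direction and side of the threshold, 20 lost the call, 11 gained it and 21, none of them called, changed sign. Direction could not change without the trend, under other filters, with the replicate block or with only the compared groups, where the fitted change is the same. The same holds when the library left out lay outside the comparison. The 395 also include genes called in neither fit, so this count does not measure robustness. The genes called higher numbered 2 in both comparisons with WT_FGO. In each, the count was 0 without the trend and with only the compared groups, and 4 with voom. The calls of Daam1 and Actr2 were not all kept when an MII library was left out. The adjusted p with maturation ranged from 0.000332 to 0.144 for Actr2 and from 3.38e-08 to 0.124 for Daam1. Voom called 1 gene lower, Rab11a, in Treat_MII against WT_FGO. Changes of sign were as follows. With maturation, Diaph1 was at 0.0412 on centring and 0.0075 after quantile normalization, and leaving out libraries moved it from -0.8438 to 0.0457. In Treat_MII against WT_FGO, Diaph1 was at 0.0289 and 0.0403 under the same settings and from -0.8557 to 0.0339 without a library, and Cdc42 at 0.3138 on centring and from -0.4418 to 0.1744 without a library. With treatment, Diaph1 was at 0.0376 in voom and 0.0328 after quantile normalization, Actr2 at -0.0377 in voom, and leaving out libraries moved Fmn2 from -0.2239 to 0.0249, Spire2 from -0.88 to 0.71, Myo5b from -0.11 to 0.65, Daam1 from -0.21 to 0.43, Diaph1 from -0.34 to 0.31 and Actr2 from -0.32 to 0.33. The median change in Treat_MII against WT_FGO was 0.17 on centring and 0.09 without WT_FGO_1. For the lists, alternatives added after seeing the data gave 0 to 4 falling Arp2/3 subunits, 0 to 4 rising PAR proteins and 0 to 5 falling actin genes. Over all genes, the maturation calls were 555 higher and 468 lower, 672 and 305 on centring, 349 and 187 without a filter, 188 and 140 without the trend, 806 and 1573 in voom, and 0 with only the compared groups or without either Treat_MII library. Replicate numbers did not pair the libraries: over 2777 genes, same-numbered libraries had deviations that correlated at 0.0356, 0.0174 and 0.0135. With the replicate block, 2 of the 10 genes were called higher with maturation, 2 in Treat_MII against WT_FGO and 0 with treatment. The causes were not tested. Depth limits Spire2 (5 reads), Actr3 (11 reads) and the WT_FGO values of Actr2 (3 reads) and Spire1 (2 reads).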
